A study of Mus musculus with 24 samples.

Results

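The comparison set CBP KIX/KIX mice trained in the Morris water maze (MWM) against WT mice that stayed in the homecage. Its 6 libraries, 3 of trained mutants and 3 of untrained WT mice, were taken by their group labels from the 24 libraries of the series. All were from the dorsal hippocampus of young adult C57BL/6j mice, with WT littermates as controls. The sample labels give every mouse as male, although the study used animals of both sexes in its groups. CBP KIX/KIX mice carry point mutations in the KIX domain of both copies of the gene for CREB-binding protein (CBP) from development onward, in every tissue. The MWM is a spatial task of several days, and tissue was taken soon after the last trial. These libraries belong to RNA-Seq 1, made from total RNA depleted of ribosomal RNA, which also held 3 WT libraries after the MWM. RNA-Seq 1 held no untrained mutants, so genotype and training change together and cannot be told apart in this comparison. In RNA-Seq 2, made from polyA-selected RNA, 4 CBP KIX/KIX and 4 WT mice were taken after contextual fear conditioning (CFC), with 3 WT and 4 CBP KIX/KIX homecage mice. The question asked of the data was which activity genes of the trained mutants stood above the level of untrained WT mice.

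Activity genes are switched on within minutes to hours of neuronal firing. Calcium and cAMP signals lead to phosphorylation of CREB bound at the promoters of many of these genes, and phosphorylated CREB docks on the KIX domain of CBP, a histone acetyltransferase and coactivator. Other routes to the same genes, such as serum response factor, MEF2 and the CREB coactivators of the CRTC family, do not require that contact. The earliest of them, Fos, the Egr genes and Arc, are widely used as marks of recently active hippocampal neurons.

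The libraries held 43816201, 46356794 and 62431769 counts in homecage WT mice, 56520239, 38174044 and 64048455 in trained mutants, and 58740625 to 65709282 in trained WT mice. Levels are given as CPM, the counts of a gene per 1000000 counts of its library, after upper-quartile scaling, and 3 counts, the smallest amount taken as detectable, came to 0.0448 to 0.0754 CPM in these libraries. Homecage WT replicate 3 stood apart from its group. The chi-square per gene between it and the other homecage libraries was 92.4 and 81.5, against 16.2 between those 2 and 12.7 to 31.5 within the trained groups. The mitochondrial ribosomal RNA mt-Rnr2 took 0.564%, 0.564% and 0.976% of the counts in homecage replicates 1, 2 and 3, 1.03%, 0.824% and 1.02% in trained WT mice, and 0.962%, 1.19% and 1.04% in trained mutants. Counts over all genes and over the gene lists are given with and without this library, and a list count between trained mutants and homecage WT mice that has no such second value moved by at most 1 gene. All-gene shares or counts without it stand with the counts over all genes or beside those of a list. Crebbp, the gene of CBP, had 172, 212 and 146 CPM in homecage WT mice and 159, 138 and 161 CPM in trained mutants, with a log2 fold change of −0.21 (SE 0.14, edgeR adjusted p = 0.354), or −0.34 (adjusted p = 0.0637) without homecage replicate 3. A point mutation leaves no mark in a count per gene.

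CREB recognises a short DNA element, and its core letters, CGTCA or the reverse TGACG, were looked for in promoters, as a sequence feature that the choice of genes did not use. The windows below, from RefSeq on GRCm38.p6, run from 250 bases before to 50 after a gene's first listed start, in the direction of the gene. They are of Fos (chr12:85473640-85473939, plus strand), Nr4a1 (chr15:101266596-101266895, plus strand), Homer1 (chr13:93303507-93303806, plus strand) and Arl5b (chr2:15055070-15055369, plus strand), all with a higher mean in trained mutants than in homecage WT mice, and of Fosb (chr7:19309996-19310295, minus strand), with a lower one. Capitals mark the core letters on either strand.
Fos: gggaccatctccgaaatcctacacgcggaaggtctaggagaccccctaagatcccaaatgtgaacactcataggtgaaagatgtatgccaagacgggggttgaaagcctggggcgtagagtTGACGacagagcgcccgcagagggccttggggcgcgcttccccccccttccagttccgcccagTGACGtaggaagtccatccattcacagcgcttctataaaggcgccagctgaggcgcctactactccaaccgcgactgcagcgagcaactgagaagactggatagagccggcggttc
Nr4a1: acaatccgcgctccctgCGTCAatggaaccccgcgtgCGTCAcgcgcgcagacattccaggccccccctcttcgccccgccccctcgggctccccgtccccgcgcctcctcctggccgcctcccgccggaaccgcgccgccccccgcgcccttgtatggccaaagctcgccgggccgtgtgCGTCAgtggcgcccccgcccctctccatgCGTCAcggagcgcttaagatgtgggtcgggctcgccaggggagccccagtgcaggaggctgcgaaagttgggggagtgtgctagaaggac
Homer1: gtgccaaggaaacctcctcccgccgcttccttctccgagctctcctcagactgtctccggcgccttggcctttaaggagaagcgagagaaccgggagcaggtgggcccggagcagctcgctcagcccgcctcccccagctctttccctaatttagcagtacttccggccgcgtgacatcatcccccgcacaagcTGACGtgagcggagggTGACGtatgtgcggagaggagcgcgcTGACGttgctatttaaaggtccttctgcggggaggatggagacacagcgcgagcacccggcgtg
Arl5b: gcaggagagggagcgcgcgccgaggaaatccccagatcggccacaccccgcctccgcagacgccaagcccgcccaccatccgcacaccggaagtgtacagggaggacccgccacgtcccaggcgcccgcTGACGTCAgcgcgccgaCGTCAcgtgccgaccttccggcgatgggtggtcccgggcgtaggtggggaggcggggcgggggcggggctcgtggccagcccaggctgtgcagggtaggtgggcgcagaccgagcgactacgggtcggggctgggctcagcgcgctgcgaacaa
Fosb: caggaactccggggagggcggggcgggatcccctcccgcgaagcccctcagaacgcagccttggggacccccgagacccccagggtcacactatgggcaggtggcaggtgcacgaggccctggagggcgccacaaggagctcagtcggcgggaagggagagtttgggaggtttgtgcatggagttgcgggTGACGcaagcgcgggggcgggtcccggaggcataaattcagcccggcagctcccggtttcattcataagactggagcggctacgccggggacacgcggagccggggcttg
Fos held 2 matches, Nr4a1 4, Homer1 3, Fosb 1 and Arl5b 3, of which 2 overlap within the full palindrome TGACGTCA. At least 1 match of the core letters stood in 20.8% of the 32851 RefSeq windows and in 56.9% of the first windows of the 72 activity genes that could be matched among 90 tested. Among the activity genes whose mutant and homecage libraries did not overlap and were higher in mutants, 8 of 15 windows held the letters, and among the other activity genes 33 of 57 did. The windows printed all hold the letters, but the first windows of Egr2, Tiparp, Bdnf, Errfi1 and Dusp6, also higher in mutants, held no match. Some later windows of Egr2, Bdnf and Errfi1 did. A match is a description of letters, not a site of binding.

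Across the 22276 genes tested in RNA-Seq 1, 8 passed an adjusted p of 0.05 between trained mutants and homecage WT mice (edgeR's quasi-likelihood test, Benjamini-Hochberg). All 8 fell, which is 0.0359% of the genes tested, and 0 rose (0%). At an unadjusted p under 0.05, 1717 genes were higher (7.71%) and 3959 lower (17.8%), or 3210 (14.2%) and 5423 (24%) without homecage replicate 3, and the median log2 fold change of all genes was −0.10. DESeq2 called 1430 higher (8.03% of the 17800 genes to which it gave an adjusted p) and 629 lower (3.53%). Without homecage replicate 3, edgeR called 2114 higher (9.37%) and 3827 lower (17%). All mutant libraries then lay above the remaining homecage libraries for 4789 of 22563 genes, and below them for 7365. With TMM scaling the median of all genes was −0.03, 3 genes fell (0.0135%), and at an unadjusted p under 0.05 2883 genes were higher (12.9%) and 2572 lower (11.5%). So few adjusted calls leave the activity genes to be read from their levels in each library and their unadjusted p, and with 3 against 3 libraries an exact permutation test of 1 gene cannot go below 0.1. All p-values measure the spread between these libraries only.

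The activity genes, like the clock, stress, noncoding RNA and marker lists below, were chosen with earlier results of these data known. Their counts beside the shares of all genes are descriptions, not tests of enrichment. Of 91 activity genes listed, 90 were tested. Jund was listed at 0 counts in all RNA-Seq 1 libraries. None of the 90 passed the adjusted threshold. At an unadjusted p under 0.05, 20 were higher in trained mutants than in untrained WT mice and 10 were lower, against the 7.71% and 17.8% of all genes, and 60 did not pass. All 3 mutant libraries lay above all 3 homecage libraries for 18 activity genes, where 8.9% of all genes did, and below them for 8, where 16.4% of all genes did. Without homecage replicate 3 these were 26 above and 29 below, where 4789 and 7365 of all 22563 genes tested were. Fewer libraries make a lack of overlap easier to reach. The median log2 fold change over the list was 0.01. With TMM scaling 25 were higher and 7 lower at an unadjusted p under 0.05, against the 12.9% and 11.5% of all genes under that scaling. DESeq2 called 19 of the list higher and 2 lower at an adjusted p under 0.05, against its 8.03% and 3.53% of all genes. Without homecage replicate 3 edgeR called 15 higher (Fos, Egr2, Nab1, Klf10, Tiparp, Arc, Homer1, Bdnf, Plk2, Arl5b, Sv2b, Scg2, Dusp5, Spred1 and Errfi1) and 18 lower, against 9.37% and 17% of all genes. Of those lower, 5 were SIK and CREB-pathway genes and 4 growth-arrest, RNA-decay and survival genes. The other inducible regulators, the synaptic and secreted effectors and the MAPK inhibitors held 3 each. The median over the list was then −0.10. At an unadjusted p under 0.05, 21 of the list were then higher and 24 lower, against 14.2% and 24% of all genes. Junb, Egr4 and Dusp6 no longer passed an unadjusted p of 0.05 without that library.

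The AP-1 factors, which pair as Fos and Jun proteins on DNA, held 6 tested members, of which Fos and Junb were higher at an unadjusted p under 0.05 and 0 lower, against the 7.71% and 17.8% of all genes, or 1 higher and 3 lower without homecage replicate 3, against 14.2% and 24%. Fos had 6.89, 8.88 and 7.77 CPM in homecage WT mice, 11.6, 10.7 and 13.3 CPM in trained mutants and 18.8, 18.3 and 14.7 CPM in trained WT mice. Its mutant libraries stood between the other groups, with no overlap on either side. The log2 fold change of trained mutants to homecage WT mice was 0.60 (SE 0.14, adjusted p = 0.0585), a fold of 1.51, with an adjusted p of 0.0131 without homecage replicate 3. Junb had 79.02, 98.1 and 70.3 CPM in homecage WT mice and 106, 91.2 and 116 CPM in trained mutants, which overlap, and its log2 fold change was 0.34 (SE 0.13, adjusted p = 0.14). Junb shares its locus with Prdx2 on the opposite strand, and since the strand setting of the counting is not given in the sources used here, reads of such pairs cannot be told apart. The same limit holds for Bdnf, Nrn1, Tiparp, Dusp1, Dusp5, Csrnp1, Sv2b, Pim1, Dbp, Nr1d1, Miat, Meg3, Vwa1 and Gm15594. Each of these has an annotated gene on the opposite strand. Fosb, the source of the long-lived protein ΔFosB, had 9.30, 9.31 and 5.95 CPM in homecage WT mice and 7.82, 5.90 and 8.49 CPM in trained mutants. The Fosb ranges overlap, and its log2 fold change was −0.13 (SE 0.18), where trained WT mice stood at 0.27 (SE 0.18) against the same homecage libraries, or 0.070 without homecage replicate 3. Without homecage replicate 3 Fosb was at −0.33 and Fosl2 at −0.50, both lower at an unadjusted p under 0.05. Jun was at −0.02 (SE 0.10) and Fosl2 at −0.39 (SE 0.19, adjusted p = 0.225).

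Among the EGR zinc-finger factors and their NAB corepressors, 3 of 6 were higher at an unadjusted p under 0.05, where 7.71% of all genes were, and the median log2 fold change was 0.34. It was again 3 of 6 without homecage replicate 3, where 14.2% of all genes were. Egr2 had the largest log2 fold change among all the activity genes tested. It had 1.28, 2.37 and 1.75 CPM in homecage WT mice, 4.38, 3.97 and 6.34 CPM in trained mutants and 12.02, 7.11 and 5.90 CPM in trained WT mice. Mutant libraries lay above the homecage ones and overlapped with those of trained WT mice. The log2 fold change to homecage was 1.45 (SE 0.29, adjusted p = 0.0516), a fold of 2.73. Egr1 had 54.0, 65.4 and 43.0 CPM in homecage WT mice and 79.3, 64.1 and 95.3 CPM in trained mutants, with 1 mutant library just below the highest homecage library and a log2 fold change of 0.56 (SE 0.18, adjusted p = 0.0938). Egr4 had 24.5, 23.3 and 14.5 CPM in homecage WT mice and 30.2, 24.7 and 29.7 CPM in trained mutants. Its groups did not overlap, at a log2 fold change of 0.45 (SE 0.18, adjusted p = 0.149) that was 0.23 without homecage replicate 3, its lowest library. Egr3 stood at 0.04 (SE 0.14), and at −0.13 without that library.

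The NR4A nuclear receptors act without a known hormone ligand and have been tied to hippocampal memory. Nr4a1 had 37.0, 63.6 and 44.2 CPM in homecage WT mice, 76.9, 60.4 and 90.5 CPM in trained mutants and 104, 106 and 76.5 CPM in trained WT mice. Mutant replicate 2 lay below the highest homecage library. The log2 fold change of Nr4a1 was 0.65 (SE 0.19, adjusted p = 0.0848). The other two did not share this: Nr4a2 was at −0.20 (SE 0.20) and Nr4a3 at 0.08 (SE 0.16), or −0.08 without homecage replicate 3, both with overlapping libraries.

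Of 16 other inducible regulators, Klf10 and Tiparp were higher and Ier5 and Srf lower at an unadjusted p under 0.05, which is near the 7.71% and 17.8% of all genes. Tiparp, an ADP-ribosyltransferase that restrains the aryl hydrocarbon receptor, had 5.20, 5.99 and 8.06 CPM in homecage WT mice, 11.04, 14.8 and 10.2 CPM in trained mutants and 10.1, 11.4 and 9.32 CPM in trained WT mice. Every trained library of either genotype lay above every homecage library, and the log2 fold change in mutants was 0.89 (SE 0.18, adjusted p = 0.0516). Klf10 had 19.98, 19.9 and 20.9 CPM in homecage WT mice and 27.1, 23.4 and 26.3 CPM in trained mutants, without overlap, at a log2 fold change of 0.34 (SE 0.09, adjusted p = 0.0756). Npas4, an inducible factor that organises inhibitory synapses, ranged from 4.42 to 11.5 CPM in homecage WT mice and from 8.15 to 10.4 CPM in trained mutants, with a log2 fold change of 0.09 (SE 0.32), which was −0.24 without homecage replicate 3. Srf, the serum response factor, had 176, 173 and 107 CPM in homecage WT mice and 122, 104 and 118 CPM in trained mutants, and homecage replicate 3 lay within the mutant range.

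The 22 synaptic and secreted effectors, the longest group of the list, held 8 members that were higher at an unadjusted p under 0.05 and 1 that was lower, against the 7.71% and 17.8% of all genes, with a median log2 fold change of 0.14. These became 11 higher and 4 lower without homecage replicate 3, against 14.2% and 24%, with a median of 0.24. Arc, the capsid-forming protein that removes AMPA receptors from synapses, had 211, 299.8 and 197 CPM in homecage WT mice, 371, 327 and 415 CPM in trained mutants and 500, 474 and 363 CPM in trained WT mice. Its mutant libraries all exceeded the homecage ones and overlapped with trained WT, and the log2 fold change was 0.65 (SE 0.17, adjusted p = 0.068). Homer1, a postsynaptic scaffold with a short inducible form, had 88.5, 93.4 and 99.6 CPM in homecage WT mice and 118, 127 and 124 CPM in trained mutants. No libraries overlapped, at a log2 fold change of 0.39 (SE 0.09, adjusted p = 0.0581). Counts per gene do not separate its short and long forms.

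Bdnf, the neurotrophin, had 25.1, 24.4 and 25.7 CPM in homecage WT mice, 33.5, 31.7 and 31.1 CPM in trained mutants and 26.1, 28.2 and 28.7 CPM in trained WT mice. Mutant libraries were the highest of the 3 groups without overlap, with a log2 fold change of 0.36 (SE 0.08, adjusted p = 0.0608) to homecage and 0.21 (SE 0.08, adjusted p = 0.813) to trained WT mice. Bdnf is overlapped on the opposite strand by Gm45346. Nrn1, a neurotrophin-like surface protein that lies within Fars2 on the opposite strand, had 94.5, 70.7 and 81.9 CPM in homecage WT mice and 109, 94.9 and 101 CPM in trained mutants, at 0.31 (SE 0.11, adjusted p = 0.12), while trained WT mice stood at −0.00 (SE 0.11) against homecage. Plk2, Arl5b, Sv2b and Scg2 were at log2 fold changes of 0.32, 0.39, 0.21 and 0.26, and Scg2 alone among these overlapped. Nptx2, a secreted pentraxin that clusters AMPA receptors, was the only effector lower at an unadjusted p under 0.05, of 6 with log2 fold changes below 0. It had 51.6, 50.5 and 39.9 CPM in homecage WT mice, 33.9, 37.0 and 34.6 CPM in trained mutants and 46.9, 41.4 and 51.5 CPM in trained WT mice. All mutant libraries lay below all WT libraries, at −0.43 (SE 0.11, adjusted p = 0.0732) to homecage.

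Among 14 inhibitors of MAPK and growth-factor signalling, 4 were higher and 1 lower at an unadjusted p under 0.05, against the 7.71% and 17.8% of all genes. These became 3 higher and 4 lower without homecage replicate 3, against 14.2% and 24%. Dusp5, a nuclear ERK phosphatase, had 14.1, 23.3 and 18.2 CPM in homecage WT mice, 29.1, 26.8 and 31.5 CPM in trained mutants and 37.8, 36.0 and 28.5 CPM in trained WT mice. No mutant library reached down to the homecage range, and the log2 fold change was 0.65 (SE 0.16, adjusted p = 0.0638). Errfi1, an inhibitor of the EGF receptor, had 27.1, 25.5 and 27.2 CPM in homecage WT mice and 35.8, 37.8 and 32.8 CPM in trained mutants, at 0.41 (SE 0.09, adjusted p = 0.0574). Dusp6 and Spred1 stood at 0.28 and 0.31. Spry2, a brake on receptor tyrosine kinase signalling, went the other way, with 48.4, 40.04 and 37.0 CPM in homecage WT mice and 32.3, 26.6 and 32.7 CPM in trained mutants, at −0.45 (SE 0.11, adjusted p = 0.0677).

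None of the 8 genes of SIK kinases and other members of the CREB pathway was higher in trained mutants at an unadjusted p under 0.05. All 8 had negative log2 fold changes, 7 of 8 with DESeq2, with a median of −0.25, and Crtc2 (−0.44, adjusted p = 0.113) and Pde10a (−0.27, adjusted p = 0.128) were lower at an unadjusted p under 0.05, where 17.8% of all genes were. When homecage replicate 3 was left out, 5 of the 8 were lower at that threshold, where 24% of all genes were, and all 5 of these were also called at an adjusted p. Sik1, a kinase that holds CRTC coactivators in the cytoplasm, had 20.6, 16.8 and 18.3 CPM in homecage WT mice and 14.4, 18.5 and 16.5 CPM in trained mutants. Its groups overlapped, at −0.17 (SE 0.12), and trained WT mice stood at 0.09 (SE 0.12) to homecage. In trained WT mice 0 of the same 8 genes were higher and 1 lower, where 1.99% and 8.87% of all genes were. The 15 growth-arrest, RNA-decay and survival genes gave 0 higher and 4 lower in trained mutants (Btg2, Zfp36l2, Midn and Pim1), near the 17.8% of all genes. With TMM scaling these became 2 higher and 3 lower (12.9% and 11.5% of all genes). Zfp36l2, which speeds decay of AU-rich mRNAs, had 15.7, 15.97 and 12.7 CPM in homecage WT mice and 11.6, 9.13 and 9.30 CPM in trained mutants, at −0.56 (SE 0.14, adjusted p = 0.068). In trained WT mice the same gene stood at −0.48 (SE 0.14) to homecage.

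**Figure D1:**
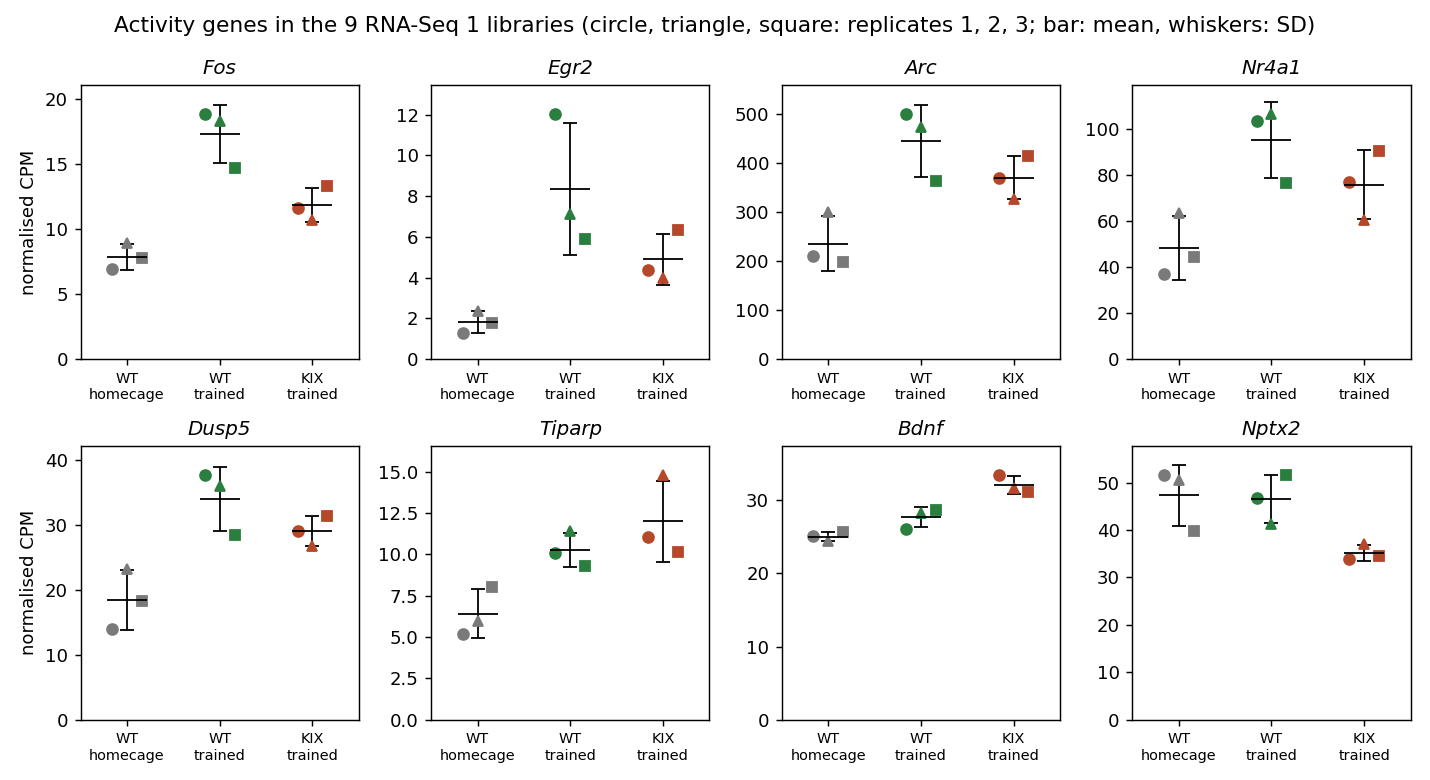
Levels of 8 activity genes in the 9 RNA-Seq 1 libraries, in CPM on axes that start at 0, with 1 symbol per replicate, a bar at the mean and whiskers of 1 SD. For Fos the 3 mutant libraries (10.7 to 13.3 CPM) lie above homecage WT and below trained WT mice, Bdnf is highest in mutants, and Nptx2 is lowest in mutants.

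Trained WT mice were compared with the same homecage libraries. In that comparison 2 genes rose, Fos and Egr2 (0.00898% of the genes tested), and 1 fell, Neat1 (0.00449%). At an unadjusted p under 0.05, 20 activity genes were higher and 4 lower, where 1.99% and 8.87% of all genes were, and 19 lay above all homecage libraries and 6 below (3.72% and 9.71% of all genes). With homecage replicate 3 left out there were 22 higher and 16 lower at an unadjusted p under 0.05 (9.32% and 17.4% of all genes), and 26 above and 24 below without overlap (17% and 26.2%). The log2 fold changes in trained WT mice were 1.14 for Fos (SE 0.14, adjusted p = 0.0125), 2.21 for Egr2 (SE 0.29, adjusted p = 0.023), 0.92 for Arc, 0.98 for Nr4a1, 0.67 for Egr1, 0.64 for Junb and 0.88 for Dusp5. The 2 comparisons share the 3 homecage libraries, so their values are set side by side only. Without homecage replicate 3, 637 genes were called higher (2.82%) and 1781 lower (7.89%) in trained WT mice.

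Between trained mutants and trained WT mice no gene passed (0% in either direction), with 539 higher (2.42%) and 747 lower (3.35%) at an unadjusted p under 0.05, and DESeq2 called 2 higher and 3 lower. Of the activity genes, 3 were higher at an unadjusted p under 0.05 (Bdnf, Nrn1 and Gadd45g) and 11 lower (Fos, Fosb, Junb, Egr2, Nr4a2, Klf4, Nptx2, Spry4, Sik1, Sik2 and Pde10a). Trained mutants lay above all trained WT libraries for 5 activity genes (8.18% of all genes) and below them for 14 (9.05%). Fos stood at −0.54 (SE 0.13) and Egr2 at −0.76 (SE 0.27), each with an adjusted p of 0.813. For several genes the difference between trained genotypes was close to 0, with 95% intervals on the log2 scale from −0.22 to 0.22 for Plk2, from −0.20 to 0.19 for Errfi1, from −0.25 to 0.17 for Arl5b and from −0.10 to 0.28 for Homer1. The interval was wider for Arc, from −0.62 to 0.09, and for Egr1, from −0.49 to 0.26.

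**Figure D2:**
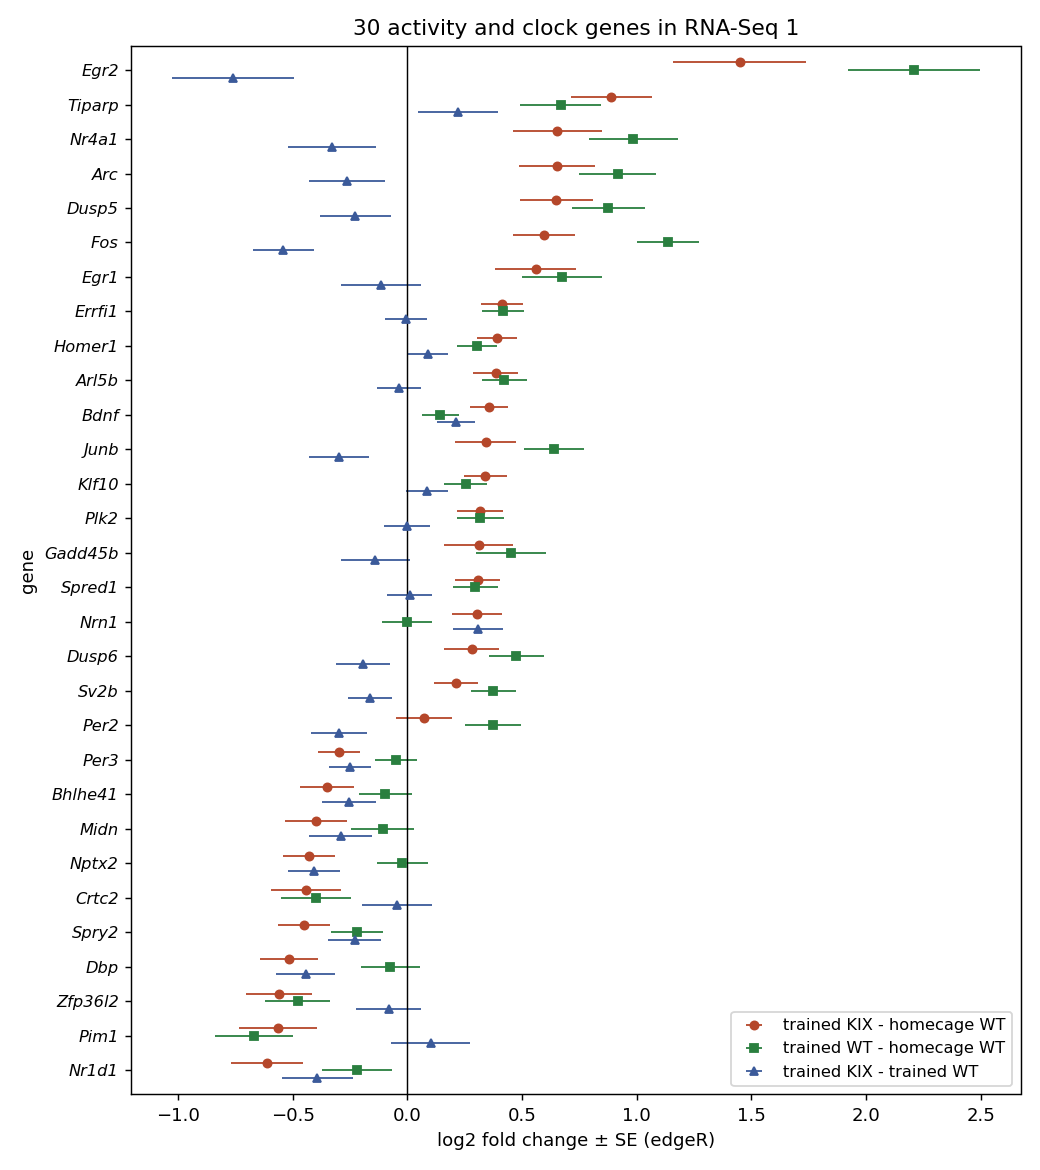
Log2 fold changes with 1 SE from edgeR for 30 activity and clock genes in RNA-Seq 1, sorted by the difference of trained mutants to homecage WT mice (circles), with trained WT to homecage WT (squares) and trained mutants to trained WT mice (triangles). Circles run from 1.45 for Egr2 to −0.61 for Nr1d1, and Egr2, Fos, Nr4a1 and Junb have squares to the right of their circles.

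A per-library score, the mean of log2(CPM + 1) over the 90 activity genes minus the mean of the homecage libraries, was 0.02, 0.09 and −0.11 in homecage WT mice, 0.15, 0.19 and 0.05 in trained WT mice and 0.06, −0.04 and 0.08 in trained mutants. Mutant libraries overlapped with the homecage ones on this score. The mutant mean was 0.03 ± 0.06 (SD, n = 3), and 0.10 with TMM scaling, beside 0.13 and 0.18 in trained WT mice. Set against homecage replicates 1 and 2 alone the mutant mean was −0.023. The same score over all genes was −0.064, −0.046 and −0.064 in mutants and −0.059, −0.036 and −0.051 in trained WT mice. With TMM scaling it was −0.011, 0.004 and −0.013 in mutants and −0.019, −0.014 and −0.009 in trained WT mice.

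Clock genes were followed because CBP also serves the CLOCK and BMAL1 activator pair. Of 19 tested, 1 was higher (Clock) and 5 were lower at an unadjusted p under 0.05, with a median log2 fold change of −0.10, the same as the median of all genes, of which 17.8% were lower. Leaving out homecage replicate 3 gave 2 higher and 7 lower, against 14.2% and 24% of all genes. Nr1d1, the REV-ERBα repressor, which overlaps Thra on the opposite strand, had 59.6, 69.5 and 41.7 CPM in homecage WT mice, 40.5, 32.7 and 38.4 CPM in trained mutants and 45.6, 54.2 and 46.8 CPM in trained WT mice. Mutant libraries were the lowest of all, at −0.61 (SE 0.15, adjusted p = 0.0678) to homecage. Dbp, an output factor of the clock, had 53.6, 58.5 and 39.8 CPM in homecage WT mice and 38.8, 32.9 and 34.2 CPM in trained mutants, at −0.52 (SE 0.13, adjusted p = 0.0661), while trained WT mice stood at −0.07, or −0.23 without homecage replicate 3. Per1 and Per2, repressors that also hold CREB-responsive elements, did not stand above homecage in mutants. Per1 had 88.1, 102 and 65.7 CPM in homecage WT mice, 91.6, 73.2 and 97.2 CPM in trained mutants and 104, 125 and 96.1 CPM in trained WT mice. Mutants overlapped with homecage for both genes, at log2 fold changes of 0.04 (SE 0.16) for Per1 and 0.07 (SE 0.12) for Per2, which were −0.13 and −0.065 without homecage replicate 3. Trained WT mice stood at 0.35 (adjusted p = 0.441) and 0.37 (adjusted p = 0.322) to homecage, both under an unadjusted p of 0.05. They stood at 0.19 (adjusted p = 0.385) and 0.24 (adjusted p = 0.132) without homecage replicate 3, and Per1 no longer passed an unadjusted p of 0.05.

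The 8 genes that fell were Gm3764, Neat1, Slc25a34, Actl10, Gm21781, Gm15594, Miat and Vwa1. Neat1, the long noncoding RNA that builds nuclear paraspeckles (chr19:5824708-5845478, minus strand), had 62.1, 57.9 and 62.6 CPM in homecage WT mice, 28.9, 35.7 and 27.9 CPM in trained mutants and 33.5, 31.4 and 29.3 CPM in trained WT mice. Both trained genotypes lay far below homecage and overlapped with each other. The log2 fold change was −0.98 in mutants (SE 0.10, adjusted p = 0.00324) and −0.95 in trained WT mice (SE 0.10, adjusted p = 0.00884), and between trained genotypes it was −0.03, with an interval from −0.25 to 0.19. Miat, another nuclear long noncoding RNA (chr5:112213228-112229395, minus strand), had 304, 333 and 243 CPM in homecage WT mice, 171, 168 and 181 CPM in trained mutants and 180, 194 and 193 CPM in trained WT mice, at −0.76 (SE 0.11, adjusted p = 0.0428). With Neat1 and Miat, 6 of 8 listed nuclear long noncoding RNAs were lower at an unadjusted p under 0.05, where 17.8% of all genes were, among them Meg3 at −0.68 and Malat1 at −0.35, with a median of −0.52.

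Gm3764, a long intergenic RNA (chr3:88206813-88229959, plus strand), fell from 93.3, 96.9 and 81.5 CPM in homecage WT mice to 46.0, 38.9 and 44.8 CPM in trained mutants, with trained WT mice between at 62.1, 50.7 and 61.4 CPM. The groups were separate throughout, at −1.06 (SE 0.11, adjusted p = 0.00324). Slc25a34, a mitochondrial carrier of the SLC25 family (chr4:141618824-141623821, minus strand), had 14.4, 17.4 and 8.98 CPM in homecage WT mice, 4.84, 4.66 and 4.69 CPM in trained mutants and 9.47, 11.9 and 10.5 CPM in trained WT mice. Mutants lay below all WT libraries, at −1.51 to homecage (SE 0.20, adjusted p = 0.0216) and −1.17 to trained WT mice (SE 0.19, adjusted p = 0.261). Actl10, an actin-like gene, was at −1.83 (SE 0.26, adjusted p = 0.0409), Vwa1 at −0.81, Gm21781 at −0.86 and Gm15594, which lies antisense to Cttnbp2, at −1.34. Gm3764 passed under every alternative tried and the others lost the call under at least 1, of which TMM scaling took it from Actl10, Gm21781, Gm15594, Miat and Vwa1 at an adjusted p of 0.0537 each.

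Papss2, which makes the sulfate donor PAPS, is known from earlier results of these data to mark the genotype. It had 8.24, 12.3 and 12.1 CPM in homecage WT mice, 5.41, 6.15 and 4.01 CPM in trained mutants and 10.6, 12.9 and 12.8 CPM in trained WT mice, at −1.08 to homecage (SE 0.18, adjusted p = 0.0515). Rbp3, a retinoid-binding protein, had under 0.5 CPM in every WT library and 1.118, 0.793 and 0.655 CPM in trained mutants, with a log2 fold change of 1.72 (SE 0.39, adjusted p = 0.0581). Col6a4 stood at 0.76 (adjusted p = 0.245).

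The genes with the lowest p on the higher side were mostly outside the activity list. Zfp189, a zinc-finger factor, had 6.11, 10.3 and 12.5 CPM in homecage WT mice, 19.98, 20.06 and 20.6 CPM in trained mutants and 15.2 to 16 CPM in trained WT mice. The groups did not overlap, at 1.06 to homecage (SE 0.18, adjusted p = 0.0516). Alcam, an adhesion molecule, had 83.1, 91.1 and 91.8 CPM in homecage WT mice and 119, 127 and 120 CPM in trained mutants, at 0.46 (SE 0.09, adjusted p = 0.0516). The others of the 10 were 2900052N01Rik, Vps50, Tsc22d3, Sh3bgrl, Fam19a1, Pls3, Gm6210 and Tiparp, the last of these an activity gene.

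**Figure D3:**
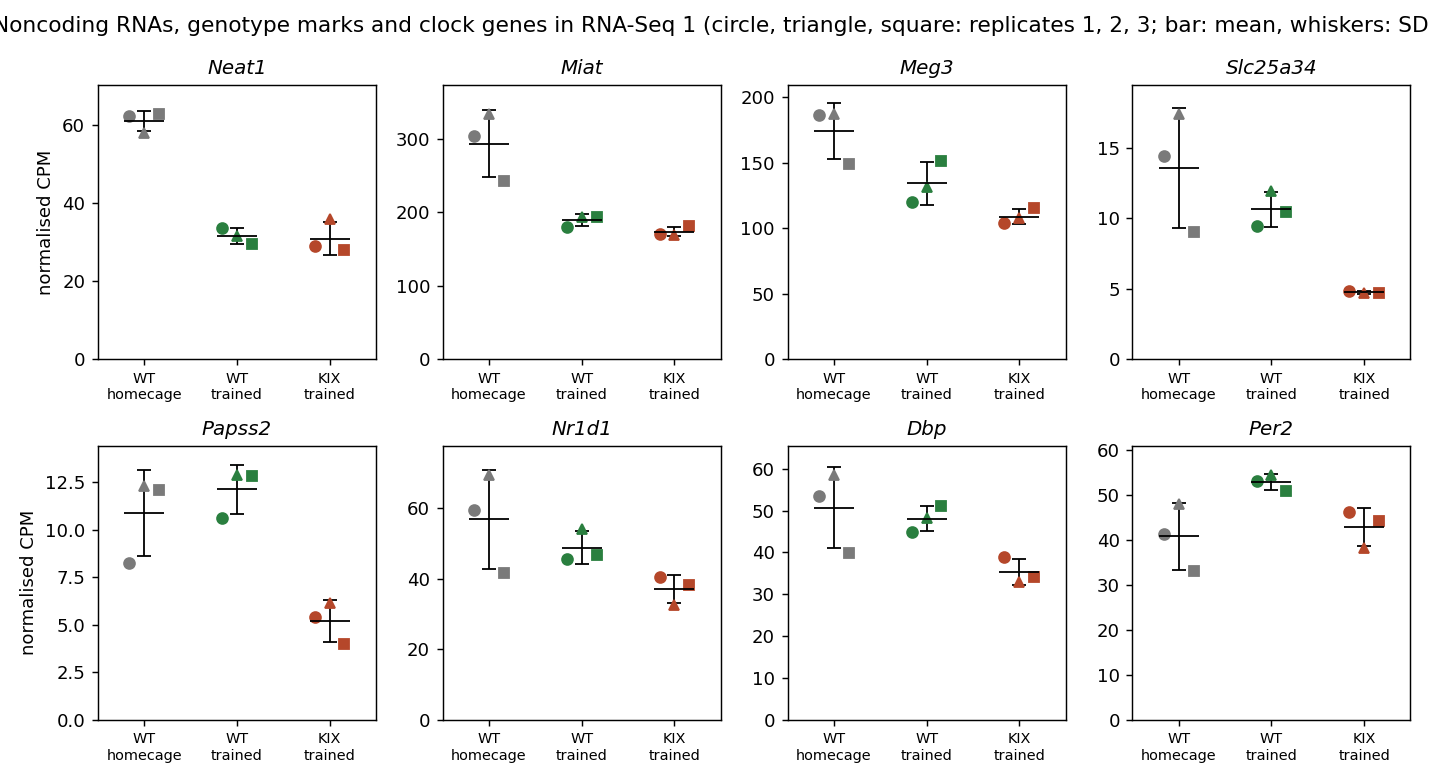
Levels of 8 noncoding RNA, genotype-marking and clock genes in the 9 RNA-Seq 1 libraries, in CPM on axes that start at 0, with 1 symbol per replicate, a bar at the mean and whiskers of 1 SD. Neat1 and Miat are low in both trained groups, Slc25a34 and Papss2 are low in mutants alone, and Per2 is higher in trained WT mice (50.9 to 54.4 CPM) than in the mutants.

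Stress genes were described with the activity genes since the water maze includes swimming. Of 13 glucocorticoid-responsive genes tested, 7 were higher at an unadjusted p under 0.05 and 0 lower, against the 7.71% and 17.8% of all genes, with a median log2 fold change of 0.37. Leaving out homecage replicate 3 gave 5 higher and 1 lower (14.2% and 24% of all genes), with a median of 0.27. Tsc22d3, which encodes the anti-inflammatory protein GILZ, had 43.8, 49.1 and 45.8 CPM in homecage WT mice, 68.0, 64.8 and 62.0 CPM in trained mutants and 57.9, 69.2 and 66.4 CPM in trained WT mice. Both trained genotypes lay above homecage, at 0.49 (SE 0.09, adjusted p = 0.0516) and 0.48 (SE 0.09). Sgk1 was at 0.66 (SE 0.18, adjusted p = 0.0774). Of 8 heat-shock genes, 4 were higher, where 7.71% of all genes were, with Hspa8 at 0.42 (SE 0.12, adjusted p = 0.0774), and of 2 cold-inducible genes 1 was lower, or 1 higher with TMM scaling. Neither CREB and its coactivators (0 higher and 0 lower of 6) nor transcription factors that bind the KIX domain (0 higher and 3 lower of 9) held a gene with a higher level at that threshold, where 7.71% of all genes were higher and 17.8% lower, and with TMM scaling (12.9% higher) each held 1. When homecage replicate 3 was left out the first list had 2 higher, both also called at an adjusted p, and 3 lower, and the second 1 higher and 5 lower, of which 1 and 3 were called at an adjusted p, against 14.2% and 24% of all genes at the unadjusted threshold. Creb1 is in both lists and had the highest log2 fold change of each, so the counts of these lists are not separate.

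Markers of other cell types differed between the same libraries. All 5 blood markers were lower in trained mutants at an unadjusted p under 0.05, where 17.8% of all genes were, and their summed level was 229, 381 and 181 CPM in homecage WT mice, 97.4, 111 and 138 CPM in trained mutants and 140, 127 and 244 CPM in trained WT mice, with Hba-a1 the most abundant. Hba-a1 and Hba-a2 are near-identical copies whose counts are uncertain one by one. Of 6 endothelial and mural markers, 4 were lower, against the same 17.8%, and their sum was 227, 259 and 215 CPM in homecage WT mice and 181, 154 and 148 CPM in trained mutants, with Flt1 the most abundant. Of 10 markers of neighbouring brain regions, 5 were lower, against the same 17.8%, and 2 were lower without overlap, where 16.4% of all genes were. Their sums overlapped, at 366, 223 and 304 CPM in homecage WT mice and 232, 274 and 220 CPM in trained mutants. Less RNA of a cell type and fewer cells of it cannot be told apart in bulk tissue.

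Choroid plexus markers, led by Ttr, summed to 230, 227 and 2067 CPM in homecage WT mice, 1485, 3348 and 316 CPM in trained mutants and 306, 789 and 1967 CPM in trained WT mice. None of the 12 passed an unadjusted p of 0.05, and without homecage replicate 3 all 12 were higher at that threshold, where 14.2% of all genes were, and edgeR called 5 of them. Homecage replicate 3 is the library with the high sum in its group. Pan-neuronal markers gave 1 higher and 0 lower of 6, astrocyte markers 2 and 2 of 6, microglia markers 1 and 2 of 6, oligodendrocyte markers 1 and 1 of 8, interneuron markers 1 and 1 of 6, hippocampal subfield markers 0 and 1 of 11, and ependymal markers 0 and 0 of 4. The shares of all genes were 7.71% and 17.8%. With homecage replicate 3 left out the pan-neuronal markers gave 1 higher and 3 lower, and the subfield markers 1 higher and 4 lower, where 14.2% and 24% of all genes were. Of these, 3 pan-neuronal and 3 subfield markers were called lower at an adjusted p. With TMM scaling the subfield markers gave 1 higher and 0 lower (12.9% and 11.5% of all genes). No marker of these lists was at 0 in all libraries, those of hippocampal subfields included. The part of these cells in the differences of other genes was not tested.

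**Figure D4:**
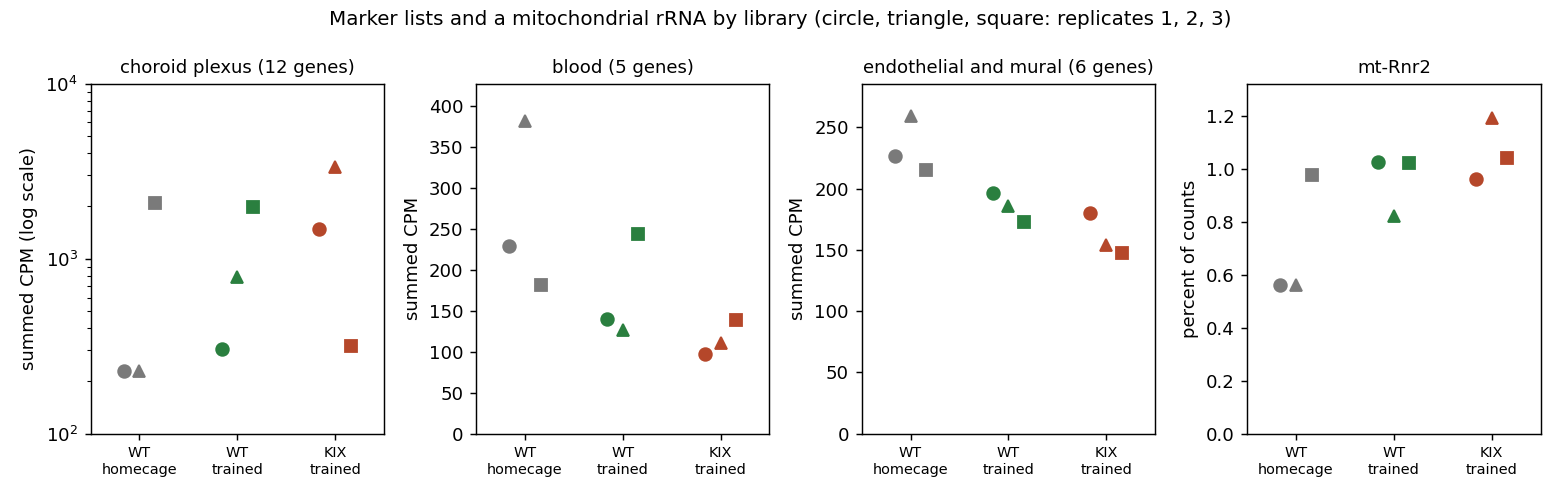
Summed CPM of choroid plexus (log axis), blood, and endothelial and mural markers, and the percent of counts on mt-Rnr2, in the 9 RNA-Seq 1 libraries, with 1 symbol per replicate. Homecage replicate 3 has a choroid plexus sum of 2067 CPM against 230 and 227 CPM in its group, and an mt-Rnr2 share of 0.976% against 0.564% in each of the others.

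Genes called in fear-conditioned WT mice gave a list chosen on mice outside the RNA-Seq 1 comparison. With all 15 RNA-Seq 2 libraries in the fit, 0 genes were called higher in fear-conditioned than in homecage WT mice by edgeR or DESeq2, with 239 (1.27%) at an unadjusted p under 0.05. That fit includes homecage CBP KIX/KIX replicate 3, which lay far from its group for many activity genes. In a fit of the 7 WT libraries alone, chosen after seeing the data, 21 genes were called (0.116% of those tested), of which 19 are in the activity list. In trained mutants of RNA-Seq 1, 10 of these 21 were higher than homecage WT at an unadjusted p under 0.05 (Egr1, Arc, Nr4a1, Fos, Junb, Egr2, Dusp6, Egr4, Tiparp and Dusp5) and 1 lower (Btg2), where 7.71% and 17.8% of all genes were. For 15 of 21 the log2 fold change was above 0, with a median of 0.28. Below 0 were Sik1, Dusp1, Ier2, Fosb, Btg2 and Csrnp1. Without homecage replicate 3 of RNA-Seq 1, 7 were higher (14.2% of all genes), 3 lower (Btg2, Fosb and Csrnp1) and 13 above 0, with a median of 0.16. In trained WT mice 10 were higher (1.99% of all genes), with a median of 0.35, or 9 higher (9.32%) and a median of 0.17 without that library.

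Trained mutants of RNA-Seq 2 are a repeat of the combined contrast on separate mice, with another task and library type. Against homecage WT mice 0 genes rose (0%) and 2 fell, Papss2 and Slc25a34 (0.0106%), with 385 higher (2.04%) and 319 lower (1.69%) at an unadjusted p under 0.05. DESeq2 called 0 higher and 4 lower. Of the 90 activity genes, 33 had all 4 mutant libraries above all 3 homecage WT libraries, where 3.25% of all genes did, and 3 had them below (2.5%). Without homecage CBP KIX/KIX replicate 3, 11 genes were called higher (0.0577%) and 2 lower (0.0105%). All 11 were in the activity list, namely Egr1, Arc, Nr4a1, Fos, Junb, Egr2, Sik1, Dusp6, Ier2, Egr4 and Npas4. Fos had 3.44, 5.01 and 5.18 CPM in homecage WT mice and 22.2, 17.99, 24.9 and 24.1 CPM in fear-conditioned mutants, beside 33.1, 24.8, 33.0 and 33.5 CPM in fear-conditioned WT mice. Mutant libraries lay above all homecage WT libraries, and the highest of them overlapped with the lowest fear-conditioned WT library. Arc had 77.2, 74.1 and 71.8 CPM in homecage WT mice and 225, 240, 211 and 192 CPM in fear-conditioned mutants, with no overlap.

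RNA-Seq 2 held the untrained mutants that RNA-Seq 1 lacks. Fos in homecage CBP KIX/KIX mice was 2.86, 1.83, 117 and 4.77 CPM, and Arc 77.7, 53.2, 617 and 77.9 CPM. Replicates 1, 2 and 4 lay below all fear-conditioned mutants for both genes. Replicate 4 stood apart in other genes, with an activity-gene score of 0.28 against −0.06 in replicates 1 and 2 and 0.20 to 0.26 in fear-conditioned mutants, and 127 CPM of Bdnf against 36.6 to 48.1 CPM in fear-conditioned mutants. Without replicate 3, 15 genes were called higher in fear-conditioned than in homecage mutants (0.0787%), 13 of them in the activity list, and 1 lower (0.00524%). Without replicates 3 and 4, 22 were called higher (0.111%), 15 of them in the activity list, and 0 lower. With all 4 edgeR called 0 and 1174 were higher (6.23%) and 1283 lower (6.81%) at an unadjusted p under 0.05, while DESeq2 called 107 higher and 181 lower.

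Some genes of the water maze comparison were at other values here. Sik1 had 8.80, 9.98 and 8.80 CPM in homecage WT mice and 15.8, 14.0, 18.5 and 17.6 CPM in fear-conditioned mutants. Its log2 fold change in RNA-Seq 1 minus that in RNA-Seq 2 was −0.999 (SE 0.36, edgeR adjusted p = 0.179), which did not pass. Neat1 had 181, 224 and 174 CPM in homecage WT mice and 160, 223, 209 and 207 CPM in fear-conditioned mutants, which overlap, at a log2 fold change of 0.05 (SE 0.16). The difference between the experiments was −1.03 for Neat1 (SE 0.21, adjusted p = 0.0536, a test added after seeing the data). Bdnf, Homer1 and Plk2 stood at 0.12 (SE 0.27), 0.07 (SE 0.16) and −0.03 (SE 0.15), and the differences between the experiments for these genes had adjusted p-values of 0.761, 0.419 and 0.367. The spread of homecage CBP KIX/KIX replicates 3 and 4 entered the fits behind these SEs and adjusted p-values, so a difference that did not pass does not show equal values. Without replicate 3, Sik1 in RNA-Seq 2 stood at 0.83 in trained mutants to homecage WT mice (edgeR adjusted p = 0.00361). Slc25a34 and Papss2 fell in RNA-Seq 2, with −1.29 (SE 0.14, adjusted p = 0.00137) and −1.14 (SE 0.09, adjusted p = 4.9e-05). In RNA-Seq 1 Slc25a34 fell, while Papss2 had an adjusted p of 0.0515. The experiments differ in task and in library preparation at once, and these cannot be told apart.

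**Figure D5:**
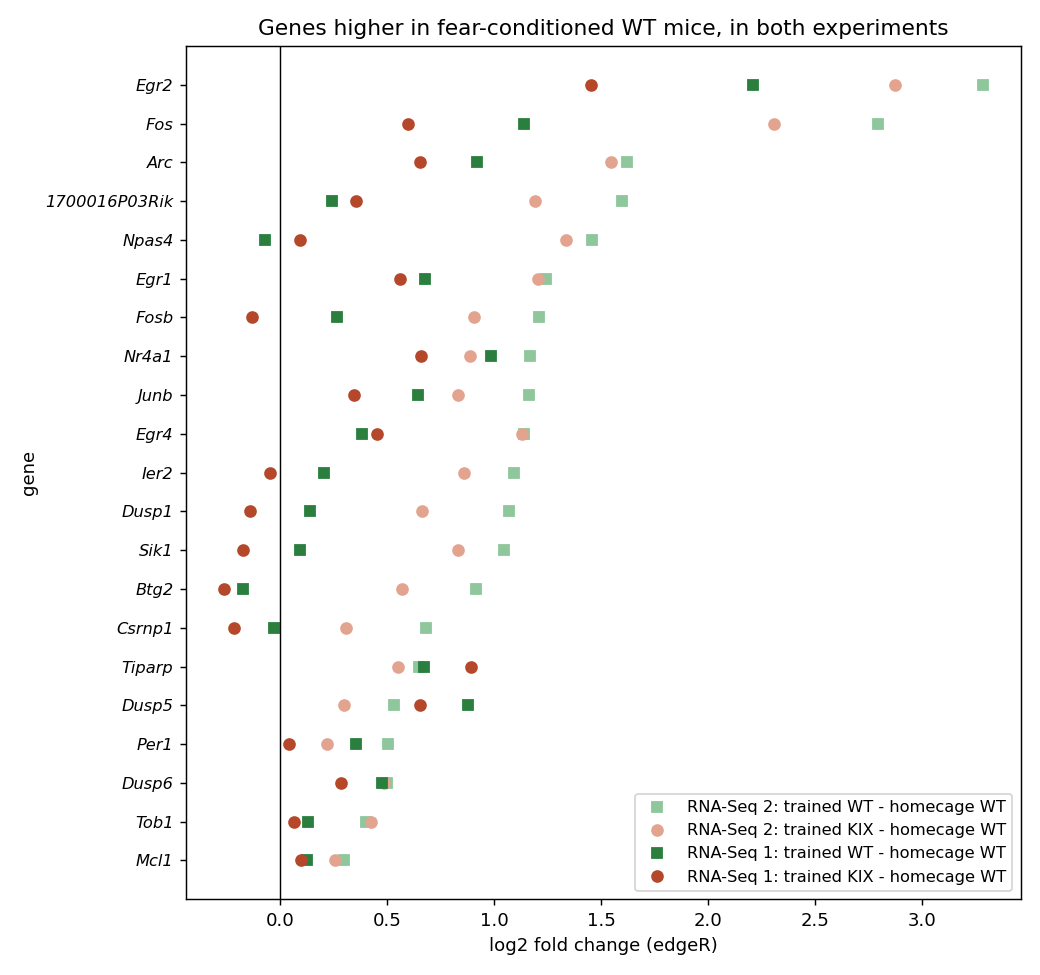
Log2 fold changes from edgeR for 21 genes called in fear-conditioned against homecage WT mice, with WT (squares) and CBP KIX/KIX mice (circles) against homecage WT mice in RNA-Seq 2 (pale) and RNA-Seq 1 (dark). The dark circles run from 1.45 for Egr2 to −0.26 for Btg2, with 15 of 21 above 0.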

How the data were processed

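RNA was sequenced from the dorsal hippocampus of 24 mice, 9 in RNA-Seq 1 and 15 in RNA-Seq 2. The authors deposited 1 table of raw read counts per gene, aligned with STAR to mm10 (GRCm38) and counted with featureCounts 1.4.4, with SAMtools 1.6 also named in the submitters' processing notes. The annotation release and the strand setting of the counting are not given in the sources used here. Gene names and coordinates came from GENCODE release 21 for mouse (GRCm38), which matched 51633 of 51826 identifiers.

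Counts were tested with edgeR 4.0.16 in R 4.3.3 by quasi-likelihood, after filterByExpr and upper-quartile scaling, with all groups of an experiment in 1 fit and Benjamini-Hochberg adjustment over all genes tested. An SE is the size of the log2 fold change divided by the square root of F, and intervals are at 95%. Summaries used Python 3.11.15 with pandas 2.3.3, NumPy 2.4.6 and SciPy 1.17.1, and plots Matplotlib 3.10.9. The test was checked on simulated data. The study also removed unwanted variation with RUVr, and 1 or 2 such factors were tried here as alternatives with a new implementation, as its packages were not used. DESeq2 1.42.0, TMM, bins of GC content, other filters, a replicate block and leaving out each replicate were the other alternatives. Added after seeing the data were RNA-Seq 2 fits without 1 or 2 libraries or with fewer groups, the fear-conditioning genes without homecage replicate 3 of RNA-Seq 1, TMM for the contrasts of untrained mutants, other scalings of the activity-gene score, and a test of the difference between the experiments in 1 fit of all 24 libraries.

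The members and the gene lists (activity, clock, CREB and coactivators, KIX-binding factors, genotype-marking, glucocorticoid-responsive, cold-inducible and heat-shock, nuclear noncoding RNA and cell type marker genes) were chosen with earlier results of these data known. Named genes were the activity and clock genes with an unadjusted p under 0.05 in trained mutants or trained WT mice against homecage, by p and up to 30 (of 45 that passed), the 10 of lowest p among higher and among lower genes, and Crebbp, Papss2, Slc25a34, Rbp3 and Col6a4. Other list members named in the text were picked after their values were seen. Depth ran from 38174044 to 65709282 counts in RNA-Seq 1 and from 15385836 to 46056290 in RNA-Seq 2, and the limit of 3 counts covers counting error only.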

Additional observations from a re-analysis of the deposited data

Results flagged for a closer look

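In RNA-Seq 2 homecage CBP KIX/KIX replicate 3 lay far above the other 3 libraries of its group by Dixon's criterion. It had 117 CPM of Fos against 1.83 to 4.77 CPM in the others. Egr2 was at 39.99 CPM against 0.306 to 0.879 CPM, Arc at 617 CPM against 53.2 to 77.9 CPM and Nr4a1 at 322 CPM against 29.98 to 47.2 CPM. Tiparp was at 60.2 CPM against 13.8 to 20.6 CPM and Fosb at 104 CPM against 6.13 to 8.54 CPM. Its Fos level also exceeded that of every fear-conditioned mouse. Fos in fear-conditioned WT replicate 2, at 24.8 CPM, lay below the 33.0 to 33.6 CPM of its group. Chance would set apart about 1 in 20 of the 42 groups of values looked at, and the values of homecage replicate 3 are of 1 library.

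For 3 named genes the difference of trained mutants to homecage WT mice itself differed between the experiments. The log2 fold change in RNA-Seq 1 minus that in RNA-Seq 2 was −0.77 for Gm3764 (adjusted p = 0.0209), −0.81 for Gm21781 (adjusted p = 0.0209) and −0.97 for Srpk3, a muscle-associated splicing-factor kinase (adjusted p = 0.0452), by edgeR over all genes. Library type differed between the experiments along with the task, and its part was not tested.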

How the results depend on the processing

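The number of genes called between trained mutants and homecage WT mice, 8 as reported, was 4806 with 1 RUVr factor (1741 higher and 3065 lower), 5626 with 2 (2020 and 3606), 2059 with DESeq2, 1539 with no filter on low counts (415 and 1124) and 344 with bins of GC content (53 and 291). It was 3 with TMM, 3 with at least 1 CPM in 3 libraries, 3 with a replicate block and 1 with only the 6 libraries compared. Leaving out 1 library gave 1 to 5941, the highest without homecage replicate 3 and the next 5. Of 53 named genes none changed direction under the fits that kept every library, 40 passed the threshold with 1 RUVr factor that had not before, and 5 lost it with TMM. Without homecage replicate 3, 36 gained the call, while Per2 changed from a log2 fold change above 0 to −0.065 and the activity-gene score to −0.023, the lowest with 1 library left out. The highest were 0.21 for Per2 and 0.078 for the score, both without homecage replicate 2. Some named genes kept their direction but moved in size. Over 15 alternatives the log2 fold change ran from 0.15 to 0.45 for Bdnf and from 0.11 to 0.40 for Spred1. It ran from 0.10 to 0.30 for Sv2b and from −0.55 to −0.20 for Nptx2. Activity genes above homecage without overlap numbered 18 as reported, 25 with TMM and 20 to 26 with 1 library left out. Those below numbered 8 as reported, 5 with TMM and 9 to 29 with 1 left out, the highest without homecage replicate 3. With 1 library fewer and the scaling kept, such a count of activity genes can only stay or rise, so its direction was set in advance. Of all 22276 genes tested, 1983 lay above and 3658 below as reported, and 3279 and 2567 with TMM. Without homecage replicate 3, 4789 of 22563 genes lay above and 7365 below, beside 26 and 29 of the 90 activity genes.

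Trained WT against homecage WT mice gave 3 calls as reported, 77 with DESeq2, 131 with no filter, 1 with the block, and 0 to 2418 with 1 library left out (2418 without homecage replicate 3, 7 without replicate 2, and 0 without homecage replicate 1 or trained WT replicate 1 or 2). Trained mutants against trained WT mice gave 5 with DESeq2 and 7 with no filter. In RNA-Seq 2 the 2 calls of trained mutants against homecage WT mice became 4 with DESeq2, 15 with only the 7 libraries compared and 13 without homecage CBP KIX/KIX replicate 3 and 21 without its replicates 3 and 4. Without replicate 3, 16 genes were called between trained and homecage mutants, against 0 with it and 22 without replicates 3 and 4, 1 between homecage mutants and homecage WT mice, against 5, and 10 between the experiments, against 17. The planned fit chose 0 fear-conditioning genes, so it left none to count in RNA-Seq 1 mutants. Those higher there numbered 8 of 17 chosen without that library and 10 of 21 chosen with only the 7 WT libraries. Of the same 21, 7 were higher when homecage replicate 3 of RNA-Seq 1 was also left out. The cause of these differences was not tested.

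Replicate numbers did not pair the samples: same-numbered mutant and homecage libraries correlated at 0.0824, −0.248 and −0.191 in their deviations from the group means, so the block is given only here, and it changed no other count.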
